A study of Mus musculus with 4 samples.

Results

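The muscle acetylcholine receptor and the proteins that cluster it were followed through 8 genes in cultured mouse progenitors. Of these, 5 encode receptor subunits (Chrna1 for alpha1, Chrnb1 for beta1, Chrnd for delta, Chrng for gamma and Chrne for epsilon), and the others encode the kinase Musk, its adaptor Dok7 and the receptor scaffold Rapsn. The genes were taken as a list of 8 out of the 32285 genes measured, and all 8 were found by identifier. They were read in the 22049 of 39891 barcodes that held at least 5000 UMIs, at least 1500 genes and at most 20% mitochondrial UMIs. A UMI, or unique molecular identifier, marks a distinct captured RNA molecule, and CPM is the number of UMIs of a gene divided by all UMIs of the cells summed, in parts per 1000000.

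The cells were mesenchymal progenitors (MPC) of the mouse line C3H10T1/2, which can form muscle and fat. All 4 conditions carried a lentiviral transgene for tagged human histone H3.1, driven by the EF1 promoter and selected with puromycin, beside the cells' own histone genes. The transgene was either unmutated (H3WT) or had an arginine-to-cysteine change in the histone tail (H3R26C). Each genotype received vehicle (DMSO) or 5-Azacitidine (5-Aza), an inhibitor of DNA methylation known to convert some cells of this line to muscle. The 5-Aza was applied at 3 µM for 24 h at the start and then removed with regular changes of medium. These cells were harvested on day 28. The day of collection of the DMSO cells is not stated, so the drug and the time in culture cannot be told apart. Every condition was a lone library, so no test between conditions was possible. All intervals are 95% intervals, exact Poisson for levels, exact binomial for shares and exact conditional binomial for ratios, and they cover counting error only.

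In muscle, the receptor is a ring of alpha1, beta1 and delta subunits with either gamma or epsilon. The gamma form is found in fetal and denervated muscle, and the epsilon form takes its place at the mature, innervated synapse. Agrin from the nerve acts through Lrp4 on the kinase MuSK, Dok7 activates MuSK from inside the cell, and rapsyn, the product of Rapsn, holds the receptors in clusters. The subunit genes are known targets of MyoD and myogenin, which bind E-box sequences, and the epsilon gene is also known for an N-box bound by ETS factors in the nuclei beneath the synapse.

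The members lie on chromosomes 1, 2, 4, 5 and 11 of GRCm38, as annotated by GENCODE. Chrnd (chr1:87190607-87200070, plus strand) and Chrng (chr1:87204657-87212694, plus strand) were neighbours with 4586 bases between them. Chrna1 was at chr2:73563215-73580338 on the minus strand, Rapsn at chr2:91035620-91045729 on the plus strand, Musk at chr4:58285960-58374303 on the plus strand and Dok7 at chr5:35056766-35087839 on the plus strand. Chrnb1 (chr11:69784036-69795943) and Chrne (chr11:70614883-70619216) were both on the minus strand. The antisense gene 4930544D05Rik overlapped Chrne, and the antisense gene Gm13778 overlapped Rapsn. Whether the counting used strand is not given in the sources used here, so reads of such partners may be mixed. In the kept cells 4930544D05Rik had 0 UMIs in all 4 libraries, and Gm13778 had 21 to 43.

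Promoter windows of RefSeq, on GRCm38.p6, were matched for 6 of the 8 members and run from 250 bases before to 50 bases after the annotated start. The windows of Chrna1, Chrng, Musk and Chrne are shown because the first pair separated muscle-like from other cells most widely, Musk is the kinase of the clustering signal, and Chrne is the adult alternative to Chrng. They are written 5′ to 3′ on the strand of the gene, with every E-box (CANNTG) and N-box (CCGGAA on either strand) in capitals.
Chrna1, chr2:73580289-73580588, minus strand: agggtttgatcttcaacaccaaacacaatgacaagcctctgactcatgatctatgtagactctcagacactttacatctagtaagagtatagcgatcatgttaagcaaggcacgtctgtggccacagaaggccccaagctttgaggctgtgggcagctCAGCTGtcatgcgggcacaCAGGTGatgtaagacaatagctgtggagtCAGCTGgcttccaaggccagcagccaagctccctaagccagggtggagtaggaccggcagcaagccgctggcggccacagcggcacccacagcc
Chrng, chr1:87205561-87205860, plus strand: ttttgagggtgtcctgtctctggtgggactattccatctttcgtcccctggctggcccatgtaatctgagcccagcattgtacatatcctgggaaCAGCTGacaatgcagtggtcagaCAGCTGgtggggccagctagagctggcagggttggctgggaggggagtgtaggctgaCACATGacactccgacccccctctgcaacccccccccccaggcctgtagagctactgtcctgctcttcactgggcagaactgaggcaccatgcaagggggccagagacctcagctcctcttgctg
Musk, chr4:58285712-58286011, plus strand: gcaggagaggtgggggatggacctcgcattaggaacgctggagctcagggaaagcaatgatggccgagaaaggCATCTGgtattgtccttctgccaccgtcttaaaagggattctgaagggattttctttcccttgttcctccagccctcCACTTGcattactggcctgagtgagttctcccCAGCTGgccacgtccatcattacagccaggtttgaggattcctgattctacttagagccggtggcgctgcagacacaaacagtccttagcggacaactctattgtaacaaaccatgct
Chrne, chr11:70619145-70619444, minus strand: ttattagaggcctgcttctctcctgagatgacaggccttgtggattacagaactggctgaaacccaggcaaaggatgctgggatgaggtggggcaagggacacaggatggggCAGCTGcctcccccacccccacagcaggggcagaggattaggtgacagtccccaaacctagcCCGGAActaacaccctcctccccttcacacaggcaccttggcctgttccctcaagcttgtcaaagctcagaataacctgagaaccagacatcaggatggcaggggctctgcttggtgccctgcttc

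The windows of Chrna1, Chrng, Musk and Chrnb1 each held 3 E-boxes, and 17.6% of all 32851 windows held at least 3. Chrna1 had the E-box form CAGCTG at 92 and 44 bases before the start, and Chrng had it at 155 and 132 bases before the start, while 1.9% of all windows held at least 2 of this form. The Chrng window lies inside the GENCODE span given above, so its distances are from the RefSeq start only. CACCTG, the other form searched, was read on either strand. It lay 73 bases before the start in Chrna1 and 29 bases before it in Chrnb1, and 20.2% of all windows held at least 1. Chrne held 1 E-box, again CAGCTG, at 138 bases before the start. It also held an N-box at 76 bases before the start, which the windows of the other matched members did not, and 14.9% of all windows held at least 1. Of the windows of Dok7, the upstream one held 1 E-box and the downstream one held 0. These are matches of letters in a window and do not show that a factor was bound.

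The cells were then divided by their content of muscle RNA. A cell was called sarcomere-rich where 6 sarcomeric genes (Acta1, Actc1, Mylpf, Myl1, Tnnc2 and Tnnt3, which encode actins, myosin light chains and troponins) together made up 1% or more of its UMIs. This gave 102 of 5993 cells (1.7%) for H3WT 5-Aza and 170 of 7619 cells (2.23%) for H3R26C 5-Aza. With DMSO, 0 of 3710 H3WT cells and 0 of 4727 H3R26C cells qualified. Taking 3 cells as the limit of a count of 0, this allows shares of up to 0.0809% and 0.0635%. The 5-Aza shares depended on the cell filter. With at least 1000 UMIs and 500 genes, 715 of 8132 H3WT and 731 of 9732 H3R26C barcodes qualified. H3WT then had the larger share. The left-out barcodes held 106036 sarcomeric UMIs in H3WT 5-Aza and 74797 in H3R26C 5-Aza, against 81390 and 146598 in the sarcomere-rich cells. The sarcomere-rich cells summed to 1702786 UMIs in H3WT and 3777030 UMIs in H3R26C, with medians of 15409 and 21904 UMIs per cell. All 12 skeletal muscle markers checked were detected in them, at a summed level of 19576 CPM in H3WT and of 18526 CPM in H3R26C, against 578 and 506 CPM in the other cells. Of 6 cardiac muscle markers, Nppa and Myl7 were at 0 in the sarcomere-rich cells of both libraries, but the list summed to 1712 CPM in H3WT and 1111 CPM in H3R26C, against 29.1 and 21.4 CPM in the other cells. Nearly all of this was Tnnt2, a troponin T that developing skeletal muscle also makes, at 1684 and 1092 CPM, while Myh6 was at 18.2 and 9.53 CPM and Tnni3 at 9.4 and 9.8 CPM. The 5 smooth muscle markers summed to 6401 CPM in the sarcomere-rich cells of H3WT and 4815 CPM in those of H3R26C, against 411 and 395 CPM in the other cells. Most of this was Acta2, at 5419 and 3945 CPM, and Des, which is also among the skeletal markers. Tagln was at 19.4 and 36.3 CPM, and Myh11 and Cnn1 had 0 UMIs in H3WT and 1 each in H3R26C. Of 7 neuron markers, Chat, Slc18a3, Snap25 and Syt1 were at 0 in the sarcomere-rich cells of both libraries, and the list summed to 2.94 and 7.41 CPM there, against 6.05 and 28.6 CPM in the other cells. The summed progenitor markers were at 1024 and 1139 CPM in these cells, against 5702 and 6632 CPM in the other cells. Between pairs of libraries, 24 to 58 barcode sequences were shared among kept cells and 0 among sarcomere-rich cells.

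With DMSO, most subunit genes were close to undetected, while Rapsn was not. Chrna1 gave 1 UMI in H3WT and 2 in H3R26C, Chrng likewise 1 and 2, Chrnd 0 and 1, and Chrne 0 and 1, among 86871326 and 84060490 UMIs in all. Chrnb1 gave 35 and 18 UMIs, or 0.403 CPM (0.281 to 0.56) and 0.214 CPM (0.127 to 0.338). Musk gave 40 and 17 UMIs, and Dok7 gave 7 and 2. Rapsn stood apart with 481 and 387 UMIs, or 5.54 CPM in H3WT and 4.6 CPM in H3R26C. The scaffold was thus detected in progenitors in which the alpha1, gamma and delta subunits were nearly absent.

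**Figure D1:**
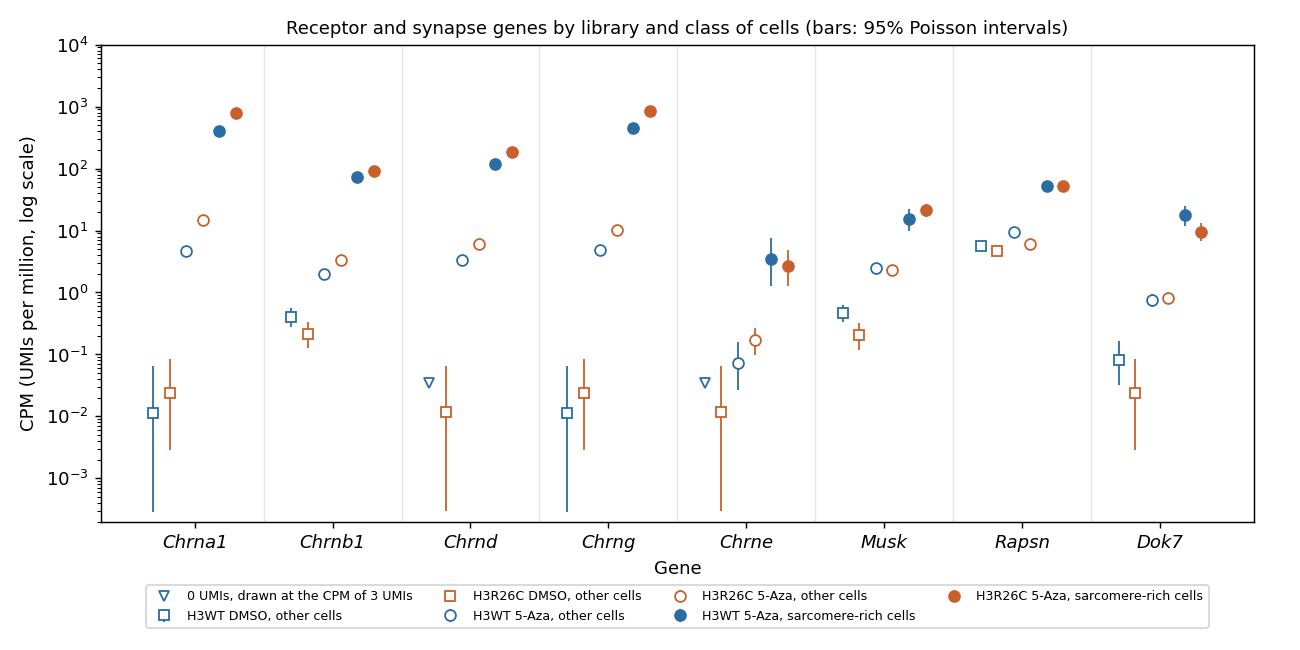
Level of each of the 8 genes in CPM (log axis) by library and class of cells, with 95% Poisson intervals of counting error; blue is H3WT, orange H3R26C, squares DMSO, open circles other cells with 5-Aza and filled circles sarcomere-rich cells, and triangles stand for 0 UMIs. For every gene the filled circles are the highest points, and Rapsn has the narrowest span, from 4.6 CPM with DMSO to 52.2 CPM in the sarcomere-rich cells, both of H3R26C.

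With 5-Aza, Chrna1, Chrnb1, Chrnd, Chrng and Musk were at higher levels than with DMSO over all kept cells in each genotype, and these 5 of the 8 genes were called. A call here means a ratio of 2 or more on the scale of CPM plus 1 for a gene whose mean reached 1 CPM, and 4.21% of all such genes were called higher in H3WT and 8% in H3R26C. The count is not read against these shares, because all 5 lay under 0.5 CPM with DMSO and reached the mean only through 5-Aza. This made a call certain for Chrna1, Chrnd and Chrng in both genotypes, and for Chrnb1 and Musk in H3R26C. With a pseudocount of 5 CPM, 3 of the 8 were called in H3WT and 4 in H3R26C. The share of all genes called at that pseudocount is not given here, so these counts are not read against a share either. Chrna1 reached 12.6 CPM in H3WT and 41.1 CPM in H3R26C, which was 1098-fold (197 to 43406) and 1725-fold (477 to 14252) the level with DMSO, where 1 and 2 UMIs were counted. Chrng reached 14.1 and 38.2 CPM, and Chrnd 5.7 and 12.4 CPM. Chrnd had 0 UMIs in H3WT DMSO, so it was at least 165-fold higher there, taken against 3 UMIs in that library.

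The other members differed less or were too scarce to be called. Chrnb1 was 8.5-fold (5.98 to 12.5) the DMSO level in H3WT and 29.4-fold (18.4 to 49.8) in H3R26C, and Musk 6.05-fold (4.31 to 8.69) and 14.6-fold (8.95 to 25.3). Rapsn was at 1.85-fold (1.65 to 2.07) and 1.66-fold (1.47 to 1.87) and was not called. Dok7, at 1.09 and 1.12 CPM with 5-Aza, and Chrne, at 0.142 and 0.253 CPM, did not reach a mean of 1 CPM over both treatments. These sums over all kept cells mix the classes. Sarcomere-rich cells numbered 102 in H3WT and 170 in H3R26C with 5-Aza and 0 with DMSO, so their level could not be compared between treatments. With 5-Aza they held 682 of the 1066 Chrna1 UMIs in H3WT and 2950 of the 4545 in H3R26C. The parts of cell share and of RNA per cell in these ratios were not tested. In the cells under 1% sarcomeric UMIs alone, where the same limit of the call holds and 3.74% and 7.43% of all genes were called higher, Chrnb1 was at 4.99-fold (3.45 to 7.4) and 15.5-fold (9.67 to 26.5) and Musk at 5.49-fold (3.9 to 7.91) and 11.4-fold (6.96 to 19.8) the DMSO level.

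Within the 5-Aza libraries, the 8 genes were all higher in sarcomere-rich than in other cells. The 6 that exceeded 1 CPM in the other cells too (Chrna1, Chrnb1, Chrnd, Chrng, Musk and Rapsn) were called at 2-fold in both libraries, where 9.43% and 7.64% of all genes were called higher. Dok7 and Chrne were also called, but they lay under 1 CPM in the other cells and reached the mean of 1 CPM only through the class in which they were high. With a pseudocount of 5 CPM, Chrne was no longer called, at log2 ratios of 0.75 in H3WT and 0.57 in H3R26C.

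Among the subunits, Chrng and Chrna1 showed the widest separation. Chrng, the fetal subunit, stood at 459 CPM (428 to 493) in the sarcomere-rich cells of H3WT and 4.9 CPM (4.43 to 5.4) in the other cells, a ratio of 93.7 (83 to 106). In H3R26C it stood at 836 CPM (807 to 865) and 10.0 CPM (9.44 to 10.7), a ratio of 83.3 (77.7 to 89.3). Chrna1, the subunit at the core of the acetylcholine-binding sites, stood at 401 CPM (371 to 432) against 4.65 CPM in H3WT, and at 781 CPM (753 to 809.7) against 14.9 CPM in H3R26C. The ratios of Chrna1 were 86.2 (76 to 97.9) and 52.4 (49.3 to 55.7). For both genes the classes lay far apart beyond their counting intervals in each library.

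Chrnd and Chrnb1, which complete the ring, had lower ratios. Chrnd had 120.4 CPM against 3.34 CPM in H3WT and 188 CPM against 6.16 CPM in H3R26C, ratios of 36 and 30.5. Chrnb1 had 72.2 CPM against 2.01 CPM in H3WT and 90.3 CPM against 3.32 CPM in H3R26C, ratios of 36 and 27.2. Chrne was scarce everywhere, with 6 UMIs in the sarcomere-rich cells of H3WT and 10 in those of H3R26C. Its levels there were 3.52 CPM (1.29 to 7.67) and 2.65 CPM (1.27 to 4.87), and those in other cells were 0.0726 and 0.168 CPM.

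The clustering genes had smaller ratios. Dok7 had 17.6 CPM against 0.75 CPM in H3WT and 9.53 CPM against 0.823 CPM in H3R26C, ratios of 23.5 and 11.6. Musk had 15.3 CPM against 2.53 CPM in H3WT and 21.2 CPM against 2.3 CPM in H3R26C, ratios of 6.04 and 9.21. Rapsn had 51.7 CPM against 9.37 CPM in H3WT and 52.2 CPM against 6.05 CPM in H3R26C, ratios of 5.52 and 8.62. Musk and Rapsn had the lowest ratios of the 8 members in both libraries.

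The gamma subunit made up nearly all of the gamma and epsilon UMIs. In sarcomere-rich cells, 782 of 788 such UMIs were Chrng in H3WT (99.2%, 98.4 to 99.7) and 3156 of 3166 in H3R26C (99.7%, 99.4 to 99.8). All 4 H3WT cells with a Chrne UMI and 7 of the 8 such H3R26C cells also held a Chrng UMI. A UMI share compares molecules captured and is not corrected for transcript length. In the other cells, Chrng was 405 of 411 UMIs in H3WT and 1073 of 1091 in H3R26C. Of 18 H3R26C other cells with a Chrne UMI, 3 held a Chrng UMI.

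Cells differed widely within the sarcomere-rich class. Among the H3WT cells, Chrna1 ran from 0 through a median of 94.7 to 2721 CPM per cell, and Chrng from 0 through 146 to 4123 CPM. Among the H3R26C cells, Chrna1 ran from 0 through 535 to 3056 CPM, and Chrng from 0 through 659 to 3130.0 CPM. The ranges overlapped almost whole, whereas the median cell of H3R26C lay well above that of H3WT. In H3WT the cell with most Chrng UMIs held 102 of the 782 (13%), and that with most Chrna1 UMIs held 76 of 682 (11.1%). In H3R26C the corresponding cells held 2.5% and 4.27%.

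The share of cells with a UMI was compared after each cell was thinned to 5000 UMIs, which removes the gap in depth. Chrna1 was found in 47.1% (37.1 to 57.2) of thinned sarcomere-rich cells of H3WT and 78.2% (71.3 to 84.2) of those of H3R26C, and without thinning in 62.7% and 88.2%. Chrng was found in 52.9% (42.8 to 62.9) and 85.3% (79.1 to 90.3), and without thinning in 67.6% and 92.9%. Chrnd was found in 31.4% (22.5 to 41.3) and 57.6% (49.8 to 65.2), and without thinning in 55.9% and 81.8%. These shares differed by more than the counting intervals, which run over the cells of 1 library each and do not test the genotypes. The intervals of Chrnb1 (27.5% and 34.1%), Rapsn (18.6% and 20.6%), Musk (4.9% and 7.65%), Dok7 (8.82% and 4.12%) and Chrne (0.98% and 2.94%) overlapped. In the other cells, thinned shares of Chrna1 were 2.04% and 5.1% and those of Chrng 1.75% and 2.98%, at median depths of 13137 and 13057 UMIs before thinning. The part of free RNA in these shares was not tested.

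Cells with several subunits at once made up a larger share in H3R26C. After thinning, 11 of 102 H3WT sarcomere-rich cells and 40 of 170 H3R26C cells held UMIs of 4 of the 5 subunits, and 24 and 10 cells held UMIs of 0 subunits. In both libraries 0 thinned cells held all 5. Without thinning, 29 H3WT cells and 109 H3R26C cells held 4 subunits, and 2 and 3 cells held all 5. The unthinned counts carry the gap in depth between the libraries.

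Between genotypes, within sarcomere-rich cells, 3 subunits had the highest ratios and Dok7 the lowest. Chrna1 was at 1.95-fold (1.79 to 2.12), Chrng at 1.82-fold (1.68 to 1.97) and Chrnd at 1.56-fold (1.33 to 1.83) the H3WT level in H3R26C. Chrnb1 was at 1.25-fold (1.01 to 1.55) and Musk at 1.39-fold (0.881 to 2.25). Rapsn was at 1.01-fold (0.781 to 1.31), and Dok7 was lower at 0.541-fold (0.324 to 0.909). Chrne, with 16 UMIs in all, had a ratio of 0.751 (0.247 to 2.52), which allows a difference in either direction.

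In this contrast 0 of the 8 members passed 2-fold, where 13.2% of all genes did so in either direction, but Chrna1 and Chrng lay close to the limit. Leaving out the cell with most UMIs of the member in each library, an alternative added after the values were seen, put both past 2-fold, and so did the mean of per-cell CPM and the looser cell filter. With a threshold of 5% sarcomeric UMIs, Chrna1 and Chrne passed it as higher and Dok7 as lower in H3R26C. For Chrne this rests on at most 6 UMIs in H3WT and 10 in H3R26C. The 13.2% belongs to the reported setting, and the share of all genes under these alternatives is not given here. The summed level of the 8 members was 1140.5 CPM in H3WT and 1980.1 CPM in H3R26C, a ratio of 1.74 (1.65 to 1.83). Of the myogenic factors known to drive the subunit genes, Myog was at 1620.3 CPM in H3WT and at 1568 CPM in H3R26C, a ratio of 0.968 (0.925 to 1.01), and Myod1 at 428 and 371 CPM, a ratio of 0.869 (0.794 to 0.952). The part of these factors in the members' ratios was not tested. Of the sarcomeric genes that defined the class, Myl1 was at 0.449-fold and Actc1 at 0.541-fold in H3R26C, whereas Mylpf was at 1.09-fold. The median share of the 6 genes was 4.8% of UMIs per cell in H3WT and 3.15% in H3R26C.

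**Figure D2:**
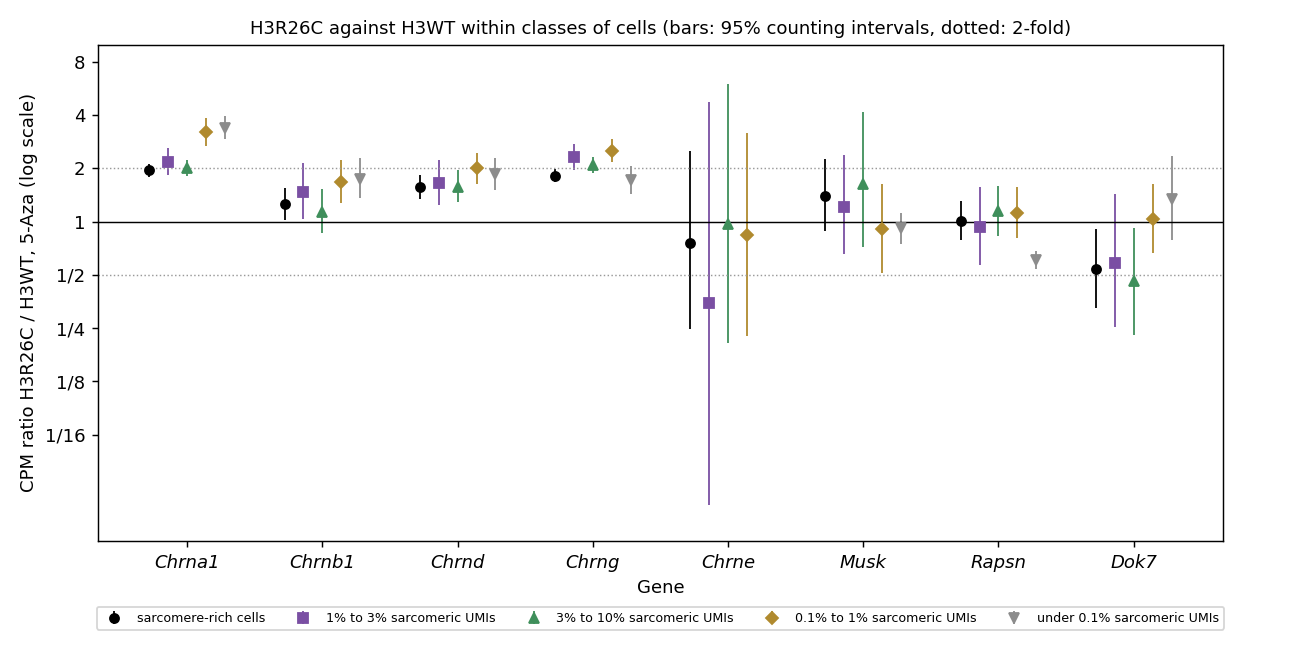
Ratio of CPM in H3R26C to H3WT with 5-Aza (log axis) for each gene within 5 classes of cells defined by the share of sarcomeric UMIs, with 95% counting intervals; the solid line marks equal levels and the dotted lines 2-fold, and Chrne under 0.1% is left out because H3WT had 0 UMIs there. Chrna1, Chrnb1, Chrnd and Chrng lie above the solid line in all 5 classes, from 1.14 for Chrnb1 to 3.39 for Chrna1, and Dok7 lies below it in the 3 classes at or over 1%.

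At matched shares of sarcomeric RNA, Chrna1 and Chrng were again higher in H3R26C. Between 1% and 3% sarcomeric UMIs (31 H3WT and 79 H3R26C cells), Chrna1 was at 267 and 583 CPM, a ratio of 2.18 (1.84 to 2.61), and Chrng at 296 and 685 CPM, a ratio of 2.32 (1.97 to 2.74). Between 3% and 10% (60 and 87 cells), the ratios were 2.02 (1.82 to 2.24) for Chrna1 and 2.09 (1.89 to 2.32) for Chrng. Both genes were called higher in both ranges, where 9.94% and 8.39% of all genes were. Chrnd was at 1.65-fold and 1.58-fold in the same ranges, and Rapsn at 0.928-fold and 1.14-fold with intervals that included 1. Chrne was called lower in the first range on 2 UMIs in each library, and Dok7 in the second, at 0.458-fold (0.227 to 0.923), with 11% and 10.6% of all genes called lower. Myog was at 1.32-fold and 0.838-fold, and its part in the members' ratios was not tested. From 10% to 20%, with 10 H3WT and 4 H3R26C cells, Chrng was instead lower in H3R26C, at 533 CPM against 1181 CPM, while Chrna1 was at 1052 CPM against 544 CPM. That range holds few cells, and 57.7% of all genes passed 2-fold in it.

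**Figure D3:**
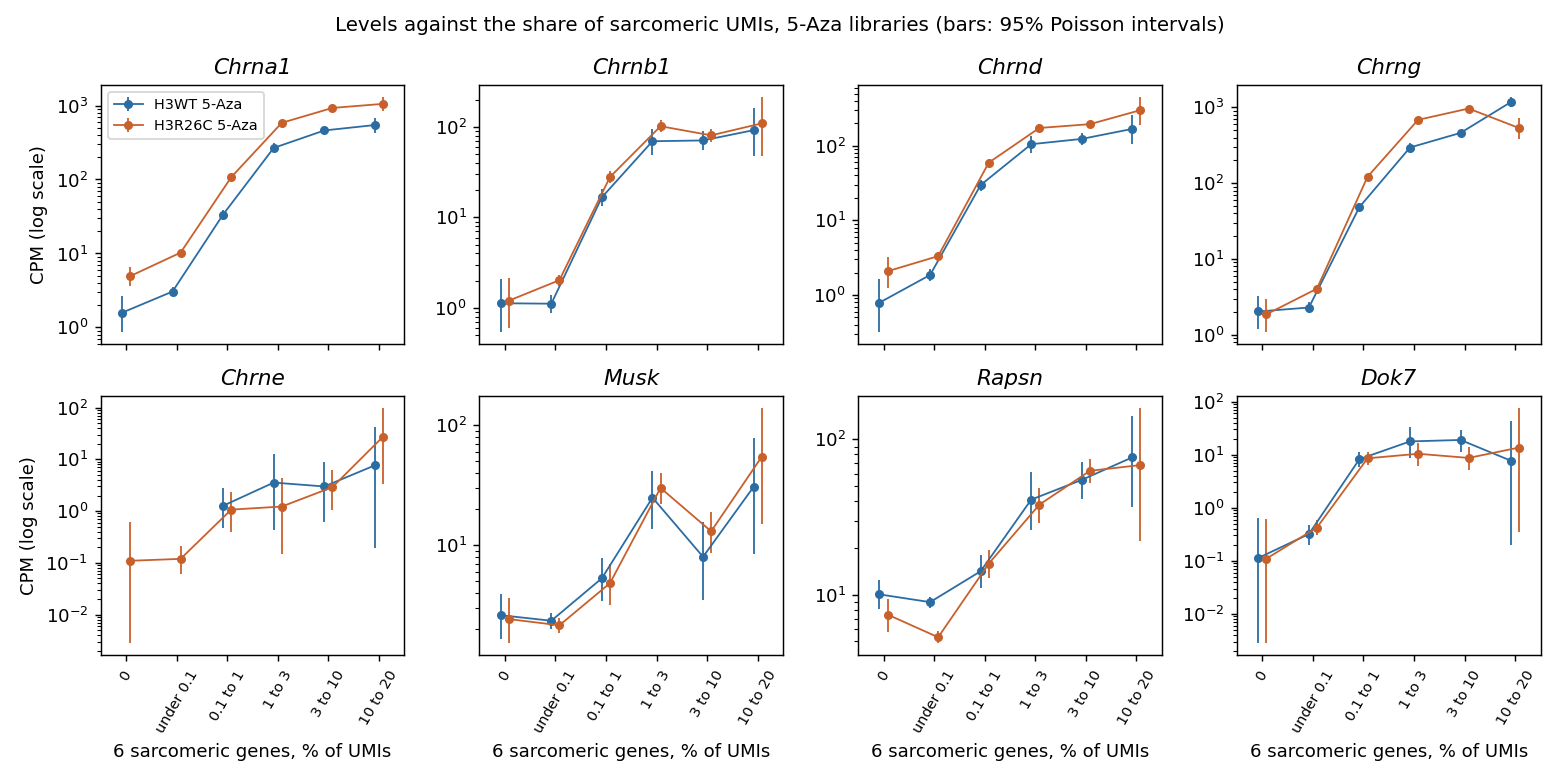
Level of each gene in CPM (log axis) against the percent of UMIs taken by the 6 sarcomeric genes, for H3WT 5-Aza (blue) and H3R26C 5-Aza (orange), with 95% Poisson intervals; ranges with 0 UMIs and the lone H3WT cell over 20% are not drawn. Chrna1 is at 1.58 and 4.93 CPM in cells with 0 sarcomeric UMIs, and at 33.6 CPM in H3WT and at 107 CPM in H3R26C between 0.1% and 1%.

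The members were also found in cells with less than 1% sarcomeric UMIs. The cells of a library were collected together, so these ranges are not an order in time. The part of free RNA or doublets in these levels was not tested. In cells between 0.1% and 1% (348 H3WT and 420 H3R26C cells), Chrng was at 48.4 and 121 CPM, against 2.29 and 4.06 CPM in cells with some sarcomeric UMIs but under 0.1%. Dok7 was at 8.24 and 8.54 CPM there, against 0.319 and 0.423 CPM. Musk, at 5.28 and 4.81 CPM against 2.33 and 2.14 CPM, and Rapsn, at 14.2 and 15.8 CPM against 8.95 and 5.32 CPM, had smaller steps. Between 0.1% and 1%, 2 members were called higher in H3R26C, Chrna1 at 3.2-fold (2.68 to 3.83) and Chrng at 2.51-fold (2.16 to 2.93), where 5.05% of all genes were. Chrnd at 2.0-fold (1.63 to 2.45) and Chrnb1 at 1.67-fold (1.27 to 2.22) had intervals above 1, and the other members had intervals that included 1. Myog at 1.68-fold and Myod1 at 1.84-fold were higher in the same cells, and their part in the members' ratios was not tested.

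Among the other cells, 6 of the 8 members reached a mean of 1 CPM, and Dok7 and Chrne did not. Of these 6, 1 was called between genotypes, Chrna1, at 3.21-fold (2.87 to 3.6) the H3WT level, where 4.95% of all genes were called higher. The pseudocount lowers the ratios of scarce genes, so a member that was not called may still differ 2-fold in CPM. Subunit levels were higher in those of these cells that held a Myog UMI. Such cells also held more sarcomeric RNA, at a median of 0.0386% of UMIs against 0.0174% without a Myog UMI in H3WT. In H3R26C these medians were 0.0327% and 0.0195%. The part of free RNA or doublets in these levels was not tested. In H3WT, Chrna1 was at 30.1 CPM in the 405 other cells with a Myog UMI and 2.64 CPM in the 5486 without, and Chrng at 38.9 and 2.22 CPM. In H3R26C, Chrna1 was at 63 CPM in 873 cells with and 7.84 CPM in 6576 cells without a Myog UMI, and Chrng at 56.2 and 3.24 CPM. Chrna1 gave 0.872 (0.786 to 0.968) UMIs per Chrng UMI in sarcomere-rich H3WT cells and 0.935 (0.889 to 0.983) in those of H3R26C, and 0.774 and 1.12 in other cells with a Myog UMI. In other cells without a Myog UMI the ratio was 1.19 (0.964 to 1.47) in H3WT and 2.42 (2.11 to 2.78) in H3R26C, so that the pair stood apart in count mainly in the latter.

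Some of these Chrna1 UMIs lay in cells with Msln and Cd34, the genes of mesothelin and of a cell surface antigen of stem cells. This split was made after the values were seen. Among H3R26C other cells without a UMI of Myog or Myod1, 263 (4.15%) held UMIs of both Msln and Cd34, while H3WT 5-Aza had 7 such cells and the DMSO libraries had 0. In the H3R26C cells with both, Chrna1 was at 28.4 CPM (23.9 to 33.5), with 141 UMIs in 95 cells, against 5.91 CPM (5.41 to 6.45) in the remaining 6074 cells, a ratio of 4.8 (3.95 to 5.8). Chrng was at 3.22 and 3.23 CPM, a ratio of 0.995 (0.561 to 1.65). Chrnd was at 0.604 and 1.56 CPM, with a ratio of 0.386 (0.0786 to 1.15), and Chrnb1 at 2.01 and 0.972 CPM, with a ratio of 2.07 (0.957 to 4.0). Rapsn gave 2 UMIs in the cells with both, or 0.402 CPM against 4.99 CPM, a ratio of 0.0807 (0.00974 to 0.293). The alpha1 gene was thus higher in the cells with both than in the remaining cells, whereas gamma was level and the scaffold lower. Delta rested on 3 UMIs in the cells with both, and its interval included 1. The medians were 17081 UMIs per cell with both genes and 12760.5 in the remaining cells. The remaining cells were those that did not hold both, and they could still hold UMIs of either gene alone. In the remaining cells, Chrna1 was 2.38-fold (2.01 to 2.83) the H3WT level in H3R26C, Chrng 1.54-fold (1.26 to 1.89) and Rapsn 0.59-fold (0.52 to 0.669).

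**Figure D4:**
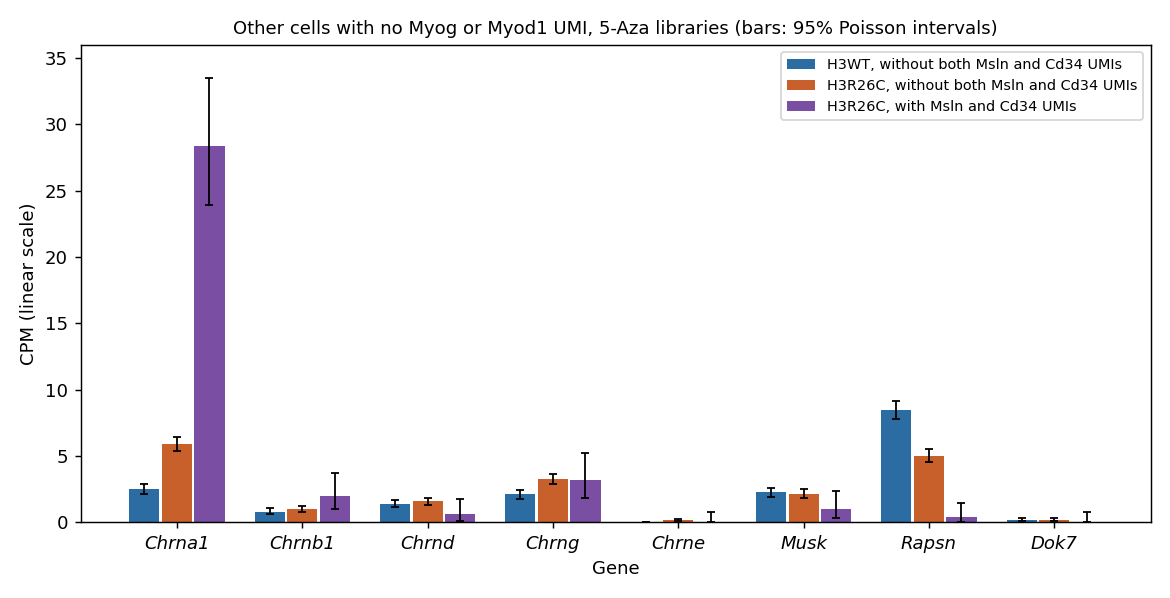
Level of each gene in CPM (linear axis from 0) in other cells of the 5-Aza libraries without a Myog or Myod1 UMI, with 95% Poisson intervals. Bars are H3WT and H3R26C cells that did not hold UMIs of both Msln and Cd34, and the 263 H3R26C cells with both. Chrna1 is at 2.49, 5.91 and 28.4 CPM in this order, whereas Rapsn is at 8.45, 4.99 and 0.402 CPM.

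In cells under 0.1% sarcomeric UMIs, Rapsn was lower in H3R26C than in H3WT, at 5.51 CPM against 9.07 CPM (0.607-fold, 0.542 to 0.679). In the same cells Chrna1 was at 3.39-fold (2.93 to 3.94), Chrnd at 1.85-fold (1.51 to 2.28), Chrnb1 at 1.75-fold (1.35 to 2.28) and Chrng at 1.71-fold (1.43 to 2.05). With DMSO, Rapsn was likewise lower in H3R26C, at 0.831-fold (0.725 to 0.953), and so were the subunit gene Chrnb1, at 0.531-fold (0.283 to 0.964) on 18 against 35 UMIs, and Musk, at 0.439-fold (0.233 to 0.793) on 17 against 40 UMIs. In sarcomere-rich cells the interval of the Rapsn ratio included 1.

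The wider synaptic pathway was read from 8 lists in the sarcomere-rich cells. Of 11 nicotinic subunits of other receptor types, 0 reached a mean of 1 CPM over both libraries, and of 10 presynaptic and transmitter genes 0 did so. Chat, the enzyme that makes acetylcholine, had 0 UMIs in both. In the list of agrin, Lrp4 and MuSK signalling, 4 of 21 genes that reached a mean of 1 CPM were at least 2-fold higher and 6 lower in sarcomere-rich than in other cells of H3WT, and 4 were higher and 8 lower of 22 in H3R26C. Of all genes, 9.43% were higher and 25.3% lower in H3WT, and 7.64% and 23.2% in H3R26C. Lrp4, the agrin receptor, was at 38.2 CPM against 12.2 CPM in H3WT and 37.3 CPM against 14.4 CPM in H3R26C. Agrn, the agrin gene, was at 8.22 CPM against 19.1 CPM in H3WT and 7.94 CPM against 18.1 CPM in H3R26C, so that agrin was lower and its receptor higher in sarcomere-rich cells (both genes were singled out after their values were seen). Macf1, a cytoskeletal linker with the highest level of the list, was at 1099 CPM in the H3WT cells and 875 CPM in the H3R26C cells.

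Between genotypes, within sarcomere-rich cells, 6.85% of all genes were called higher in H3R26C and 6.39% lower. In the list of agrin, Lrp4 and MuSK signalling, 1 of 19 genes did so, the adaptor Dok1, which was at 6.46 CPM in the H3WT cells and 17.7 CPM in the H3R26C cells. In the list of neuregulin and ETS factors, 1 of 6 did so, the ETS factor Etv5, at 7.05 and 16.2 CPM, whereas Gabpa, the ETS factor that binds N-boxes, was at 24.7 and 29.7 CPM. Of 12 genes of the synaptic cleft and basal lamina, 2 were higher and 2 lower. Ache, the enzyme that breaks down acetylcholine, was at 9.98 CPM in the H3WT cells and 35.2 CPM in the H3R26C cells, a ratio of 3.53 (2.12 to 6.24). Colq, the collagen tail that anchors this enzyme in the cleft, differed in the opposite direction, at 32.9 and 12.2 CPM, a ratio of 0.37 (0.245 to 0.557). Lama5, a laminin chain, was at 12.9 and 35.5 CPM, and Nid2, a nidogen of basement membranes, at 103 and 42.6 CPM.

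Of 13 genes of the dystrophin and utrophin complex, 0 were higher and 2 lower. Dmd, which encodes dystrophin, was at 19.4 CPM in the H3WT cells and 8.74 CPM in the H3R26C cells, and the syntrophin gene Sntb2 at 61.7 and 28.6 CPM, while utrophin (Utrn), the form gathered at the synapse, was at 137 and 108 CPM. In the list of the postsynaptic membrane and its anchoring, Cav3, the muscle caveolin, was at 165 CPM in the H3WT cells and 65.9 CPM in the H3R26C cells, a ratio of 0.399 (0.335 to 0.475). The muscle sodium channel gene Scn4a (2 and 13 UMIs) and the potassium channel gene Kcnj2 (12 and 11 UMIs) had intervals that included 1. Of 8 genes of activity-regulated transcription, 1 was lower, Id1, an inhibitor of the factors that bind E-boxes, at 67.5 and 32 CPM. Runx1, a factor known from denervated muscle, was at 143 and 138 CPM. The medians of these 6 lists lay between -0.10 and 0.23 on the log2 scale, that of the 8 members was 0.38, and that of all genes was -0.08.

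The genes most like the summed members were sought among 8782 genes with at least 5 CPM, over 13 ranges of sarcomeric share from the pair of 5-Aza libraries. The highest Pearson r on log2 of CPM plus 1 belonged to Tnni1 (0.983), the slow troponin I, Mymk (0.974), the fusion factor myomaker, Tmem38b (0.97), Nes (0.968), the filament protein nestin, and Srl (0.961). These values are descriptions, since the ranges share libraries and are ordered by muscle content. The order depended on the range with a lone H3WT cell, in which Chrna1, Chrng and Chrnd had 0 UMIs. Without that range, left out after the values were seen, the leading genes were Jsrp1 (0.996), Nexn, Tmem182, Tmem38b and Ankrd1, and Tmem38b was in both sets.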

How the data were processed

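Single-cell RNA was measured in 4 libraries, 1 for each combination of genotype (H3WT, H3R26C) and treatment (DMSO, 5-Aza). The deposited files hold UMI counts per gene and barcode, which the authors made with Cell Ranger against mm10 (version 6.1.0 in the file headers). The submitters' processing notes name Cell Ranger 6 and Seurat 4. The end of the transcript that was tagged and the strand setting are not given in the sources used here. Sample groups came from the labels, and 0 columns of other samples were present.

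Barcodes with at least 5000 UMIs, at least 1500 genes and at most 20% mitochondrial UMIs were kept, and no doublets were removed. The kept cells summed to between 84060490 and 110712425 UMIs per library. Counts were summed over the cells of a class, divided by all UMIs of the class and given as CPM. Calls used 2-fold on log2 of CPM plus a pseudocount of 1, for genes whose mean reached 1 CPM. With 1 library per condition, intervals (95%, exact) cover counting error only, and no p-value was computed. Shares were compared after thinning each cell to 5000 UMIs. All 8 members were named, together with the 4 genes of highest mean CPM or past 2-fold in each pathway list, of which those with a clear role in the text are given. A gene of the list of the postsynaptic membrane is not reported here. The members and lists were chosen with earlier results of these data known. Alternatives changed the threshold, the cell filter, the pseudocount, the CPM total, the averaging and possible doublets. The script was tested on simulated data. Python 3.11.15, numpy 2.4.6, scipy 1.17.1, pandas 2.3.3 and matplotlib 3.10.9 were used.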

Additional observations from a re-analysis of the deposited data

Results flagged for a closer look

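Barcodes that failed the cell filter, which the comparisons did not use, also held receptor RNA with 5-Aza. Chrna1 was at 72.6 CPM in those of H3WT and 89 CPM in those of H3R26C, and Chrng at 67.9 and 96.6 CPM. Chrnd was at 38.5 and 37.1 CPM, and Chrnb1 at 8.64 and 12.7 CPM. Of the clustering genes, Rapsn was at 17.7 and 17.4 CPM, Musk at 8.31 and 10.2 CPM, and Dok7 at 5.47 and 3.84 CPM. Among the failed barcodes of the DMSO libraries, Chrna1 gave 0 and 0 UMIs, Chrng 1 and 0, and Rapsn 14 and 9. Every one of these levels with 5-Aza was above that in the DMSO barcodes.

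The ratio of H3R26C to H3WT over all kept cells lay on opposite sides of 1 in the 2 treatments for Chrnb1 and for the summed members. For Chrnb1 it was 0.531 with DMSO and 1.83 with 5-Aza, and for the sum of the 8 members 0.787 and 2.19. With 1 library per condition the difference was not tested. The sum was made up of different genes in each treatment. With DMSO it was mostly Rapsn, with 481 UMIs in H3WT and 387 in H3R26C. With 5-Aza, Chrna1 (1066 and 4545 UMIs) and Chrng (1187 and 4229 UMIs) exceeded Rapsn (862 and 844 UMIs).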

How the results depend on the processing

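No paired analysis was possible because the 4 conditions had 1 library each and no result came from a test. Of the counts of members, the summed ratio and the share of Chrng, 58 values stayed close to the reported ones under the alternatives and 14 moved. The summed ratio kept its direction. Of the members' ratios of sarcomere-rich to other cells, 59 values stayed within the reported counting intervals and 133 lay outside them. The values held a pseudocount and the intervals did not, so a value could lie outside without any effect of the alternative. The 133 are therefore not a count of such effects. The log2 values of these ratios all stayed above 0, with the lowest at 0.57 for Chrne in H3R26C. Of the members' ratios between genotypes, set against their intervals in the same way, 78 stayed and 10 moved. Of the shares of cells, taken without thinning or with another random seed, 16 stayed and 16 moved. The number of members past 2-fold between genotypes in sarcomere-rich cells, 0 as reported, was 1 with a threshold of 0.5% of UMIs (Chrna1). It was 3 with 5% (Chrna1 and Chrne higher in H3R26C, Dok7 lower). With the looser cell filter and with the mean of per-cell CPM it was 2 (Chrna1 and Chrng). The same pair passed without the cell richest in the member. Without the 10% of cells with the most UMIs it was 3 (Chrnb1, Chrng and Musk). That alternative kept 70 of the 102 sarcomere-rich cells of H3WT and 93 of the 170 of H3R26C. The share of all genes past 2-fold under each alternative is not given here. These counts are therefore not read as a result about the members. The log2 ratio of the summed members, 0.80 as reported, was 0.87 with 0.5%, 0.91 with the looser filter, 0.91 with the mean of per-cell CPM and 1.04 without the 10% of cells with the most UMIs. The share of Chrng was 99.8% in H3WT and 99.3% in H3R26C with 5%, and 99.4% in H3R26C without the deepest cells. With a pseudocount of 5 CPM, 3 members were called higher with 5-Aza in H3WT in place of 5. Only the pseudocount was changed in this alternative, and the share of all genes called at it is not given here. Over the alternatives, the log2 ratio between genotypes ran from 0.86 to 1.09 for Chrna1, 0.62 to 1.45 for Chrng and -1.39 to -0.55 for Dok7, and crossed 0 for Chrne and Rapsn. The depth limits Chrne most, with 6 and 10 UMIs in the sarcomere-rich cells.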
